A study of Homo sapiens with 2 samples.

Results

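The genes described here carry a cell through G1, the phase between division and DNA replication. They are the D-type cyclin genes CCND1, CCND2 and CCND3, the genes of their kinases CDK4 and CDK6, the E-type cyclin genes CCNE1 and CCNE2, the retinoblastoma gene RB1, the transcription factor gene E2F1 and the oncogene MYC. The 10 genes were chosen by name, with earlier results of these data known, which limits their contrast with all genes. They were found by symbol, and all 10 were among the 25343 gene entries measured in both libraries. Genes were compared only if they averaged 1 TPM or more over both libraries, which left 13745 entries. Of the 10 genes 9 passed that minimum, and CCND2 did not.

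The RNA came from Huh7, a human cell line established from a well differentiated carcinoma of the liver. The cells had been kept for 6 days in low glucose medium (0.45 g/L) or in high glucose medium (4.5 g/L), both DMEM with fetal bovine serum, and live cells were reseeded at high confluency. Each medium is represented by 1 library of 1 cell line, so no test between media was possible, no error can be given, and each difference describes these libraries. The labels name no genetic change to the cells of either medium. The values are TPM (transcript abundance per fixed total), which correct for transcript length and sum to 1000000 in each library; reads per gene were not given, so the depth is unknown. All 10 liver and hepatoma markers examined, among them ALB and AFP, stood above 1 TPM in both libraries. The leukocyte genes PTPRC and CD3E, the endothelial genes CDH5, VWF and KDR and the fibroblast genes DCN and LUM stood below 1 TPM in both. Above 1 TPM in both were the fibroblast genes COL1A1 (4.03 TPM in low and 1.06 TPM in high glucose), COL1A2 (24.6 and 18.7 TPM), COL3A1 (2.91 and 2.09 TPM) and PDGFRA (7.89 and 13.8 TPM), the endothelial gene PECAM1 (1.25 and 1.35 TPM) and the leukocyte gene CD14 (2.26 and 3.04 TPM). Summed over the whole marker lists, 6 fibroblast genes held 39.7 TPM in low glucose and 36.03 TPM in high glucose, 4 endothelial genes 2.19 and 2.14 TPM, and 4 leukocyte genes 200.4 and 554 TPM. Nearly all of the last sum was LYZ, which encodes lysozyme, at 197.6 TPM in low and 550.3 TPM in high glucose. The part of these markers in the differences below was not tested.

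Growth signals raise D-type cyclins, which bind and activate CDK4 and CDK6. These kinases phosphorylate the retinoblastoma protein and loosen its hold on E2F factors, which then switch on genes for DNA replication, including those of the E-type cyclins and of E2F1 itself. E-type cyclins activate CDK2 and complete the phosphorylation of the retinoblastoma protein. MYC, which pairs with MAX at DNA sites called E-boxes, promotes growth and is known to act on CDK4 and CCND2. In liver, CCND1 is the cyclin known for its induction when hepatocytes re-enter the cycle, for example after partial hepatectomy.

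Sequence upstream of a pair of these genes shows the motifs that E2F factors and MYC are known to bind. The first sequence shows E2F-type motifs ahead of the E2F1 gene and the second shows E-boxes ahead of CDK4; each holds the 250 bases before the RefSeq transcription start, 5′ to 3′ on the strand of the gene, in the GRCh38.p14 build. The E2F1 stretch lies on the minus strand at chr20:33686386-33686635 and the CDK4 stretch on the minus strand at chr12:57752311-57752560. Capitals mark matches to the motif.
E2F1: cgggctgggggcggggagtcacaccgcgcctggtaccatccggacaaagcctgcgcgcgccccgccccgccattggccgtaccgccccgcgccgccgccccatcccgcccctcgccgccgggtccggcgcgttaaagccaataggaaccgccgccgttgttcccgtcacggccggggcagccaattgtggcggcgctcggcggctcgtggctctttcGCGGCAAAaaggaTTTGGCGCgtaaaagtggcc
CDK4: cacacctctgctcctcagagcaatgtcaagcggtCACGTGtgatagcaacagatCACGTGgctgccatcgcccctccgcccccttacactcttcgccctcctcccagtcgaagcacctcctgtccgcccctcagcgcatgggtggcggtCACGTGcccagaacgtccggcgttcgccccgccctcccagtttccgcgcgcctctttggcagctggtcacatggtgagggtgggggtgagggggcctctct

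The E2F motif was searched as TTTCGCGC, TTTGGCGC, TTTCCCGC or TTTGCCGC and the E-box as CACGTG, both on either strand. The E2F1 stretch held 2 E2F matches, 33 to 26 and 20 to 13 bases before the start, the first of them on the opposite strand. Of all 35116 such windows in the promoter set, which lacks some genes, 2.79% held at least 1 E2F match and 0.122% at least 2. The CDK4 stretch held 3 E-boxes, and 0.0797% of all windows held at least 3, against 6.34% with at least 1. The GC box GGGCGG and the CRE TGACGTCA were searched as well, and no capital stretch overlapped a match to another motif. Windows of 6 members were searched (9 windows, since some genes have several starts). The promoter set held no window of CCND1 or CCND2. CCNE2 and MYC, both on chromosome 8, were left out of this search. Of the 6 members searched, the E2F motif was found in E2F1 alone and the E-box in CDK4 alone. These letters were not found in the windows of CCND3, CCNE1, CDK6 and RB1, and the single RB1 window precedes an alternative start inside the gene, not its first exon. The GC box was in 6 of the 9 windows (42.6% of all windows) and the CRE in 0 (1.65% of all). A match describes the sequence and was not measured as binding.

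Among the 10 genes, CCND1 RNA was far lower in low glucose, MYC RNA was nearly 2-fold higher, and CDK4 was level. The other 6 genes compared, CCND3, CCNE1, CCNE2, CDK6, RB1 and E2F1, were all lower by less than 2-fold. In bulk RNA, fewer cells in a phase of the cycle and less RNA per cell cannot be told apart. Each difference is log2(TPM + 1) in low glucose minus that in high glucose, and the added 1 makes differences of weakly expressed genes look smaller. Values of 1 and above, or -1 and below, are called past 2-fold. By this rule 1 of the 9 genes compared was lower (1.10% of all genes compared were) and 0 were higher (3.65% of all genes). At 1.5-fold, 3 genes were lower (6.07% of all genes) and 1 was higher (13.0%). In all, 7 of the 9 differences lay below 0, as did 45.3% of all genes compared, and 2 lay above 0 (54.6% of all genes); CDK4 joined those below 0 under 2 of the scalings tried. The median of the 9 was -0.44, beside 0.05 over all genes.

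**Figure D1:**
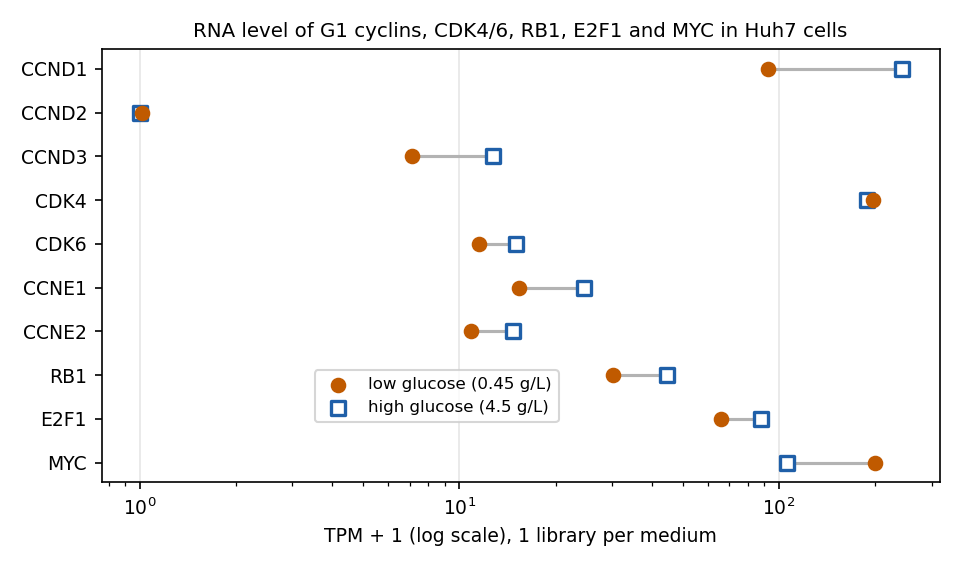
TPM + 1 on a log axis for the 10 genes, with a filled circle for the low glucose library and an open square for the high glucose library (1 library each). CCND1 has the third highest circle and the highest square (91.3 TPM in low and 241 TPM in high glucose), MYC has the highest circle (198 TPM), and the symbols of CDK4 nearly coincide.

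CCND1 encodes cyclin D1 and lies on chromosome 11 from 69455873 to 69469242 in hg19, the build of all gene coordinates given here apart from the stretches above. It stood at 91.3 TPM in low glucose and 241 TPM in high glucose. Its difference was -1.39, and the TPM in high glucose was 2.64 times that in low glucose. Only 0.262% of the genes compared had a difference as low or lower. The share was 0.291% among the genes of like level, 1 of 20 groups ordered by mean TPM, whose median difference was -0.16. In low glucose 1914 gene entries stood above CCND1, and in high glucose 653 did.

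CCND3 encodes cyclin D3, the D-type cyclin best known from lymphoid cells, on chromosome 6 from 41902671 to 42016632. It stood at 6.11 TPM in low and 11.7 TPM in high glucose, a difference of -0.84, short of 2-fold. Among genes of like level 1.46% had a difference as low or lower. CCND2, on chromosome 12 from 4382902 to 4414522, encodes cyclin D2 and was listed at 0.02 TPM in low glucose and at 0 in high glucose, so it was not compared. Both libraries held RNA of cyclins D1 and D3 and barely any of D2.

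Summed over the 3 genes, D-type cyclin RNA stood at 97.4 TPM in low and 253 TPM in high glucose, a ratio of 0.386. CCND1 made up 93.7% of this sum in low and 95.4% in high glucose, so the make-up of the D-type cyclins was alike in both media while the total differed.

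CDK4, the main partner of cyclin D1 in epithelial cells, lies on chromosome 12 from 58141510 to 58146230. It stood at 196 TPM in low and 188 TPM in high glucose, a difference of 0.06. This became -0.03 with median-of-ratios and with trimmed-mean scaling, and 0.22 with the median of genes of like level subtracted. CDK6, on chromosome 7 from 92234235 to 92465941, encodes the related kinase. It stood at 10.5 TPM in low and 13.99 TPM in high glucose, a difference of -0.38, and 10.2% of genes of like level had a difference as low or lower. The pair summed to 206 TPM in low and 202 TPM in high glucose, with CDK4 at 94.9% and 93.1% of the sum. D-type cyclin TPM per TPM of CDK4 and CDK6 was therefore 0.472 in low glucose and 1.25 in high glucose. Cyclin RNA was the smaller of these sums in low glucose and the larger in high glucose.

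**Figure D2:**
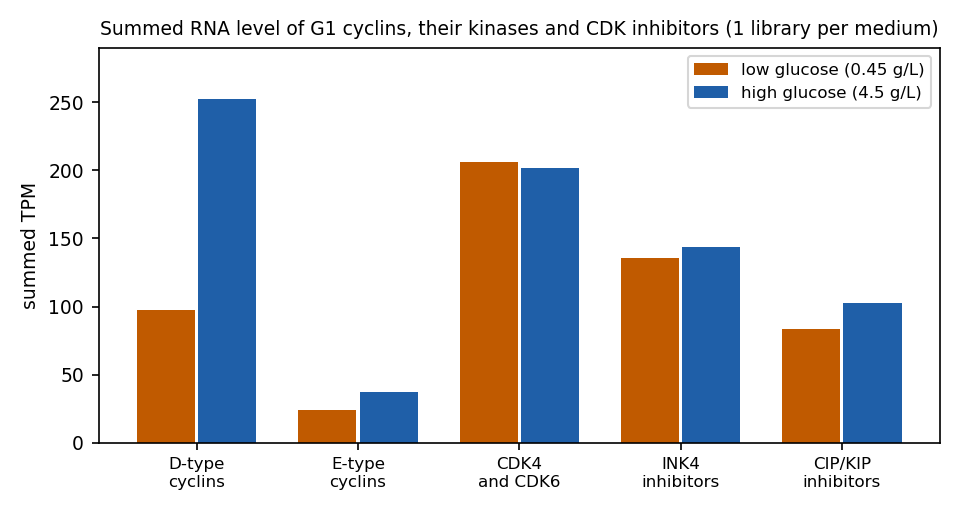
Summed TPM in the low glucose library (left bar of each pair) and the high glucose library (right bar) for D-type cyclins, E-type cyclins, CDK4 with CDK6, and both families of CDK inhibitors, with 1 library per medium and hence no error bars. The D-type cyclins show the widest gap, 97.4 against 253 TPM, while the kinases stand at 206 and 202 TPM.

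The E-type cyclins stood lower by smaller amounts. CCNE1 (cyclin E1; chromosome 19, 30302901 to 30315215) stood at 14.4 TPM in low and 23.5 TPM in high glucose, a difference of -0.67. Of genes of like level, 3.64% had a difference as low or lower. CCNE2 (cyclin E2; chromosome 8, 95892453 to 95907482) stood at 9.88 TPM in low and 13.7 TPM in high glucose, a difference of -0.44, with 8.88% of like-level genes as low or lower. Their sum was 24.3 TPM in low and 37.3 TPM in high glucose. The ratio of D-type to E-type cyclin TPM was 4.02 in low glucose and 6.78 in high glucose.

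RB1 (chromosome 13, 48877883 to 49056026), whose protein restrains E2F factors, stood at 29.2 TPM in low and 43.6 TPM in high glucose, a difference of -0.56. E2F1 (chromosome 20, 32263292 to 32274210), an activating E2F factor, stood at 64.9 TPM in low and 86.8 TPM in high glucose, a difference of -0.42. As low or lower were 5.97% of the genes of like level for RB1 and 18.2% for E2F1. Both genes were lower by similar ratios, so E2F1 per RB1 TPM was 2.22 in low and 1.99 in high glucose.

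MYC (chromosome 8, 128748315 to 128753680) stood at 198 TPM in low glucose and 105 TPM in high glucose, a ratio of 1.88. Its difference of 0.91 lay just short of 2-fold. Of all genes compared, 4.71% had a difference as high or higher, as did 5.24% of the genes of like level. Genes of this level had a median difference of -0.16, and with that median subtracted MYC stood at 1.07, past 2-fold. Under the other alternatives of pseudocount, filter and scaling it stayed short of 2-fold, at the lowest 0.82 with trimmed-mean scaling. MYC was the more abundant of MYC and CCND1 in low glucose and the less abundant in high glucose, with MYC TPM per CCND1 TPM at 2.17 and 0.437.

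From high to low, the order of levels in low glucose was MYC, CDK4, CCND1, E2F1, RB1, CCNE1, CDK6, CCNE2, CCND3 and CCND2. In high glucose it was CCND1, CDK4, MYC, E2F1, RB1, CCNE1, CDK6, CCNE2, CCND3 and CCND2, so 8 of the 10 places were held by the same gene. With 1 library per medium there is no spread against which neighbours in these orders could be told apart. MYC and CDK4 were 198 and 196 TPM in low glucose, and CDK6 and CCNE2 were 13.99 and 13.7 TPM in high glucose.

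**Figure D3:**
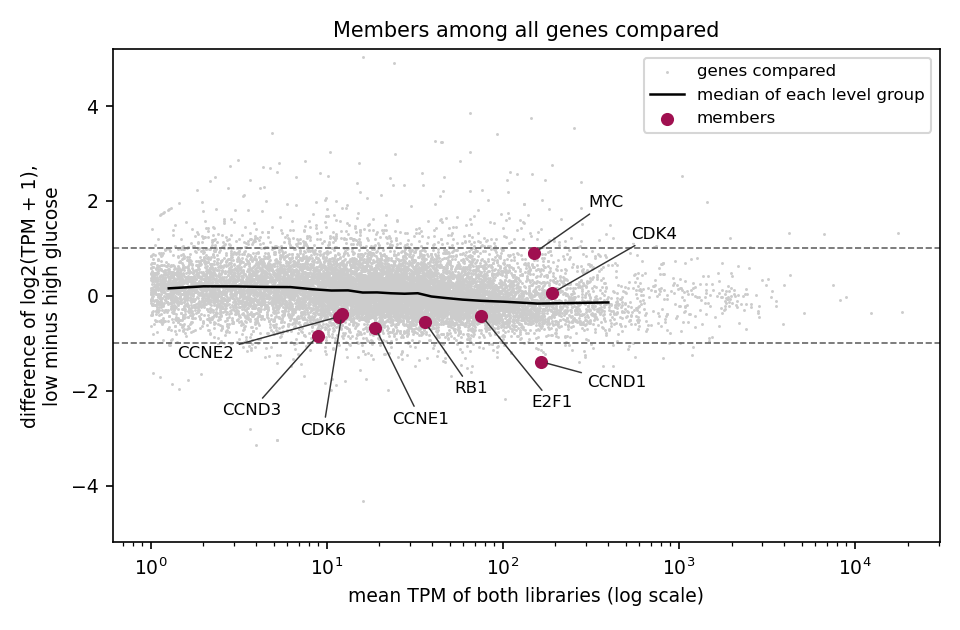
Each dot is 1 of the 13745 genes compared, with mean TPM of both libraries on a log x axis and log2(TPM + 1) in low minus high glucose on the y axis; the black line joins the medians of 20 level groups and dashed lines mark 2-fold. CCND1 (-1.39) lies below the lower dashed line, MYC (0.91) just under the upper one, and CDK4 (0.06) near 0.

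The intervals of 4 members overlap another entry that was above 0 in at least 1 library. CDK4 shares 517 bases with TSPAN31 (31.1 TPM in low and 28.4 TPM in high glucose) and CCNE2 shares 269 bases with INTS8 (30.3 and 34.8 TPM). RB1 encloses LPAR6 (35.5 and 34.2 TPM), and CDK6 shares 145 bases with LOC101927497 (0 and 0.22 TPM). The sources used here do not say whether the libraries keep strand, so reads in the shared bases may not have been told apart. CCND1, CCND3, CCNE1, E2F1 and MYC share no bases with an entry above 0.

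CDK inhibitors hold back the kinases of this step, the INK4 proteins binding CDK4 and CDK6 and the CIP/KIP proteins binding complexes with several cyclins. Of 7 inhibitor genes, with a median of -0.13, 2 were at least 2-fold lower (1.10% of all genes were) and 1 was at least 2-fold higher (3.65%). The lower ones were CDKN1C (5.11 TPM in low and 20.3 TPM in high glucose) and CDKN2C (7.10 and 26.5 TPM). CDKN2B was the higher one (41.7 TPM in low and 18.9 TPM in high glucose; short of 2-fold with a pseudocount of 5), and the most abundant, CDKN2A (76.9 and 88.5 TPM) and CDKN1B (69.2 and 72.3 TPM), were within 2-fold. The INK4 sum was 136 TPM in low and 144 TPM in high glucose, and INK4 TPM per TPM of CDK4 and CDK6 was 0.657 and 0.713. The INK4 sum was nearly level, at a ratio of 0.943, while its members differed in both directions. TPM per gene pools all transcripts of CDKN2A, the largest part of this sum, whichever protein they encode. The CIP/KIP sum was 83.3 TPM in low and 103 TPM in high glucose.

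Most other cyclins and CDKs of the cell cycle, CDK2 among them, lay below 0 without reaching 2-fold. Of 9 genes 8 were compared, 7 of them below 0 (45.3% of all genes compared), and their median difference was -0.58 beside 0.05 over all genes. CDK2, the kinase of the E-type cyclins, stood at 50.4 TPM in low and 86.3 TPM in high glucose, a difference of -0.77. CDK1, the mitotic kinase, stood at 148 TPM in low and 192.4 TPM in high glucose, and its partner CCNB1 at 128 and 192.4 TPM. Among 9 genes of CDK activation and phosphatases the median was 0.06, which became -0.03 with median-of-ratios and with trimmed-mean scaling. The phosphatase gene CDC25A, which removes inhibitory phosphates from CDK2, was the 1 past 2-fold. It was lower (1.10% of all genes compared were), at 18.4 TPM in low and 48.6 TPM in high glucose. CDC37, a cochaperone that delivers CDK4 to HSP90, stood at 410 and 360 TPM, and CDC25B at 99.8 and 136 TPM.

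Relatives and partners of E2F1 and RB1 were within 2-fold on the log2(TPM + 1) scale. Of 12 genes of the E2F, DP and pocket protein families 11 were compared. Of these 8 lay below 0 (45.3% of all genes compared), and the median was -0.24. E2F2, an activating E2F factor chosen after its values were seen, stood at 4.35 TPM in low and 9.05 TPM in high glucose, a difference of -0.91, and was past 2-fold with a pseudocount of 0.1 or with like-level medians subtracted. TFDP1, which encodes the DNA-binding partner of E2F factors, stood at 49.97 TPM in low and 88.3 TPM in high glucose. TFDP1 TPM per E2F1 TPM was 0.770 in low and 1.02 in high glucose. E2F4, a repressive E2F factor, stood at 52.7 and 48.8 TPM. Subunits of the MuvB and DREAM complexes, which act with pocket proteins and later with MYBL2 and FOXM1, had a median of -0.26 over 8 genes with 0 past 2-fold; MYBL2 stood at 185 and 237 TPM and FOXM1 at 75.3 and 125 TPM.

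Genes known as E2F targets at the entry to S phase lay below 0, most of them by less than 2-fold. All 24 genes did (45.3% of all genes compared), under every scaling tried as well, with a median of -0.77 beside 0.05 over all genes. The list was chosen with earlier results of these data known, which limits the contrast with all genes. Of the 24 genes 4 were at least 2-fold lower (1.10% of all genes) and 15 at least 1.5-fold lower (6.07%). The DNA clamp gene PCNA stood at 222 TPM in low and 624 TPM in high glucose, and the thymidine kinase gene TK1 at 61.0 and 127 TPM. UHRF1, a factor in DNA methylation upkeep, stood at 35.5 and 82.2 TPM, and the helicase subunit genes MCM6 at 59.2 and 126 TPM and MCM7 at 229 and 375 TPM. With like-level medians subtracted, MCM6 and TK1 were short of 2-fold. E2F1 itself, at a difference of -0.42, was closer to 0 than this median, and RB1, at -0.56, likewise. Promoter windows were found for 21 of the 24 genes, and 11 of their 33 windows (33.3%) held an E2F match, beside 2.79% of all windows. The E-box was in 6.06% of these windows, beside 6.34% of all. Such shares describe genes chosen as known E2F targets and say nothing of the libraries.

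Genes of the MYC network lay on both sides of 0. Of 19 genes of its network 18 were compared, with 11 above 0 (54.6% of all genes compared) and 7 below 0 (45.3%). Their median was 0.12, and with median-of-ratios or trimmed-mean scaling 9 lay on each side of 0. MYCN, the MYC relative of neural and embryonic cells, was at least 2-fold lower at 3.00 TPM in low and 11.8 TPM in high glucose. MXD1, a repressor that competes with MYC for MAX, stood at 27.1 and 12.5 TPM, past 2-fold, but short of it with a pseudocount of 5, with median-of-ratios and trimmed-mean scaling and with like-level medians subtracted. MAX, the partner of MYC, stood at 25.2 and 23.9 TPM, so MYC TPM per MAX TPM was 7.86 in low and 4.41 in high glucose. RUVBL2 (165 and 175 TPM) and RUVBL1 (74.8 and 111 TPM), ATPases that act with MYC, were the most abundant of the list. MYC and MYCN together stood at 201 TPM in low and 117 TPM in high glucose, with MYCN a small part of either sum. The sum of the 4 MXD genes was 114 TPM in low and 116 TPM in high glucose.

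Genes known as MYC targets in growth, mostly for ribosome assembly and nucleolar proteins, centred near 0. Of 24 genes 0 were past 2-fold, and 11 lay above 0 (54.6% of all genes compared) and 13 below 0 (45.3%). The median was -0.04. It became -0.13 with median-of-ratios and with trimmed-mean scaling, and 0.08 when the median of like-level genes was subtracted. PTMA (prothymosin alpha) stood at 1043 TPM in low and 1924 TPM in high glucose, and NPM1 (nucleophosmin) at 1850.1 and 1933.0 TPM. Promoter windows were found for 19 of these genes, and 5 of 25 windows (20%) held the E-box, beside 6.34% of all windows. The E2F motif was in 0 of these windows, beside 2.79% of all. Here too the shares describe genes chosen as known targets and not the libraries. CDK4, whose stretch with 3 E-boxes is printed above, was level. Whether MYC acted on any of these genes was not tested.

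The proteins of cyclins D and E and of MYC are short-lived and are not measured here, but the RNA of genes that destroy or protect them is. Over 18 genes the median was 0.03, of either sign under the alternatives. Of the 18 genes 1 was at least 2-fold lower (1.10% of all genes compared were) and 1 at least 2-fold higher (3.65%). SKP2, the F-box protein that marks CDKN1B protein for destruction, was at least 2-fold lower at 98.7 TPM in low and 211 TPM in high glucose, but short of 2-fold with like-level medians subtracted. CRYAB, a small heat shock protein that has been described in cyclin D1 turnover with FBXO4, stood at 12.2 and 3.85 TPM, higher in low glucose, and was short of 2-fold with a pseudocount of 5. CKS1B, the SKP2 cofactor, stood at 380 and 401 TPM, and the ligase subunit gene SKP1 at 139 and 195 TPM.

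**Figure D4:**
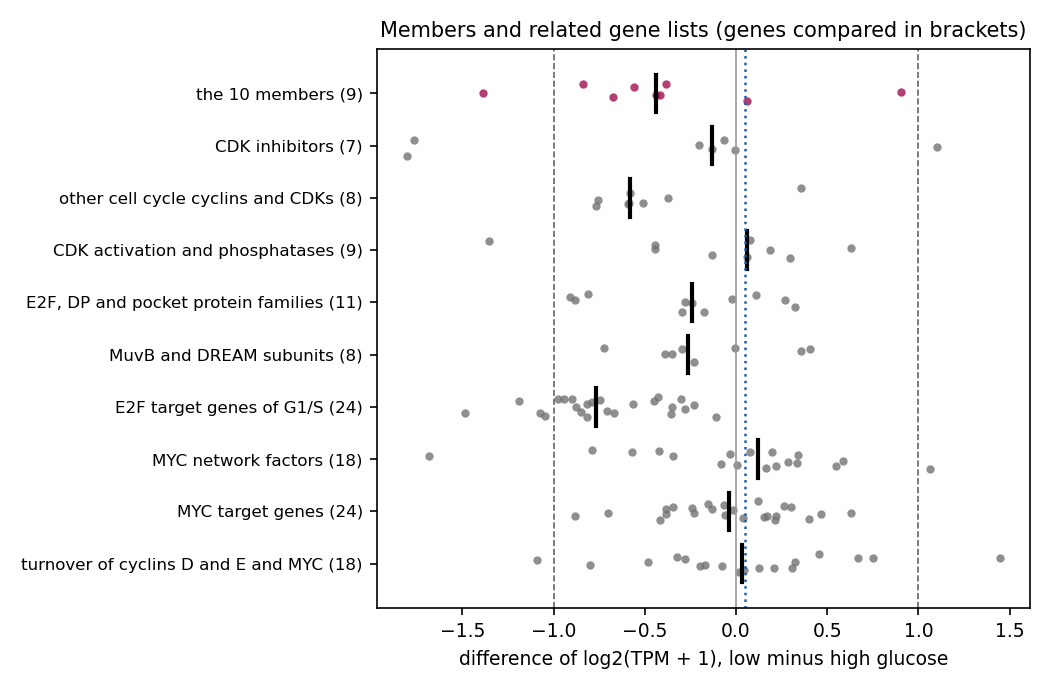
Differences (log2(TPM + 1) in low minus high glucose) for the 9 members compared (top row) and the genes compared of 9 related lists; each dot is a gene, black bars are medians, dashed lines mark 2-fold and the dotted line the median of all genes (0.05). The E2F target genes all lie left of 0 (median -0.77), while the MYC target genes spread on both sides of it (median -0.04). The lists were chosen with earlier results of these data known.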

How the data were processed

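Huh7 RNA was measured in 1 library per medium, each medium taken from the treatment label. The authors deposited TPM per gene with 2 decimals, per the file headers; the submitters' processing notes name cutadapt, RSEM 1.2.21 and hg19. Aligner, annotation and filters: not given in the sources used here. Because the TPM total is fixed, a rise of abundant genes lowers all other values, and depth cannot be recovered from it.

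Genes with a mean of at least 1 TPM were compared by log2(TPM + 1), low minus high glucose, with a 2-fold rule and no test. The members and the 9 gene lists (130 genes) were chosen with earlier results of these data known. Besides the 10 members, the text names per list up to 4 genes with the largest differences past 2-fold and the 2 most abundant; MAX, CDK2, E2F2 and CCNG1 fall outside this rule and were chosen after their values were seen. Promoter sequences and starts are from RefSeq (GRCh38.p14), matched by symbol. Alternatives were pseudocounts of 0.1 and 5, other filters, 5 scalings and thresholds of 1.5-fold and 3-fold. 1 marker gene is not reported here. Scripts were first tested on simulated data. Python 3.11.15, numpy 2.4.6 and pandas 2.3.3 were used.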

Additional observations from a re-analysis of the deposited data

How the results depend on the processing

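No paired analysis was possible because each medium has 1 library. CCND1 stayed at least 2-fold lower (-1.48 to -1.23) under all 9 alternatives of pseudocount, filter and scaling, and the differences of CCND3, CCNE1, CCNE2, CDK6, E2F1, RB1 and MYC kept their sign where they passed the filter. CDK4 moved to -0.028 with median-of-ratios and -0.032 with trimmed-mean scaling, and to 0.22 with like-level medians subtracted. Subtracting the median of like-level genes put MYC at 1.07, which made 2 members past 2-fold. MYC was short of 2-fold under the other scalings, down to 0.82 with trimmed-mean scaling. At 1.5-fold 4 members were past the threshold and at 3-fold 0.

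Over all genes, 502 were at least 2-fold higher and 151 lower. These counts were 234 and 79 with a pseudocount of 5, 1786 and 835 at 1.5-fold, and 119 and 22 at 3-fold, and 293 were higher among genes of at least 10 TPM. Past 2-fold on the list of E2F, DP and pocket proteins were 0 genes, and 1 with a pseudocount of 0.1 or with like-level medians subtracted; the 4 E2F targets became 2 in that last setting. The MYC network list (2 genes past 2-fold) had 1 with a pseudocount of 5, at 10 TPM, with median-of-ratios and trimmed-mean scaling, with like-level medians subtracted and at 3-fold. The turnover list (2) had 1 with a pseudocount of 5, at 10 TPM (median -0.076) and with like-level medians subtracted, where the MYC target median was 0.078. At 1.5-fold the lists held 3 later cyclins and CDKs, 2 CDK activation genes, 3 of the E2F family, 1 DREAM gene, 15 E2F targets, 4 MYC network genes, 3 MYC targets and 5 turnover genes; at 3-fold 0 genes of CDK activation, E2F targets and turnover were past the threshold. Medians near 0 changed sign: CDK activation stood at -0.026 with median-of-ratios and -0.030 with trimmed-mean scaling, and turnover at -0.051 and -0.055 with these, -0.010 with upper-quartile scaling and -0.020 with like-level medians subtracted. The cause of the moves was not tested. Without replicates or depth, the error of low genes such as CCND3 is unknown.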

Other observations

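Noncoding genes beside MYC and cyclins outside the cell cycle core were looked at after the other values were seen. Neither group was put through the alternatives of pseudocount, filter and scaling. Of 6 entries near MYC on chromosome 8, 3 reached a mean of 1 TPM. All 3 were past 2-fold, 2 upward (3.65% of all genes) and 1 downward (1.10%). PVT1, a long noncoding RNA downstream of MYC (128902874 to 129113499), stood at 3.28 TPM in low and 0.82 TPM in high glucose, a difference of 1.23. CCAT1, a long noncoding RNA upstream of MYC, stood at 17.9 and 6.37 TPM, a difference of 1.36, and CASC8 at 1.40 and 3.81 TPM, a difference of -1.003. PVT1 and CASC8 averaged only 2.05 and 2.605 TPM, close to the minimum, so their differences depend strongly on the added 1. Whether they stay past 2-fold with a larger pseudocount was not tested. MYC itself, at 0.91, stood below PVT1 and CCAT1 and above CASC8, which went the opposite way.

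Of 24 cyclin and CDK genes outside the cell cycle core 23 were compared, with a median of -0.07. At 1.5-fold 7 were higher in low glucose (13.0% of all genes compared were) and 0 were lower (6.07%). Past 2-fold was 1 gene, which was higher in low glucose (3.65% of all genes compared were). This was CCNL1, a cyclin tied to RNA splicing, at 162 TPM in low and 69.9 TPM in high glucose. Its relative CCNL2 stood at 218 and 109 TPM, a TPM ratio of 2.01 that falls just short of 2-fold on the log2(TPM + 1) scale. CDK10 stood at 197 and 132 TPM, while CCNG1, a p53 target, stood at 82.0 and 120.1 TPM.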
